A study of Sus scrofa with 23 samples.

Results

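The comparison described here is that of coconut oil with rapeseed oil in the feed of pigs that all received cDDGS, maize distillers dried grains, a by-product of ethanol plants. The sample labels place 11 of the 23 pigs of the study in these groups. Group II received +cDDGS+rapeseed oil and held 6 pigs, of which 3 were female and 3 male. Group IV received +cDDGS+coconut oil and held 5 pigs, of which 3 were female and 2 male. The study describes its pigs as gilts and barrows, so the males were castrated. The measured tissue was backfat, the subcutaneous fat of the back, and each sample was 1 pig. The pigs were fatteners from Polish Landrace by White Large Polish sows and a Duroc by Pietrain boar, penned individually and fed isoenergetic mixtures, and both groups carried the same cDDGS background, so that the kind of added fat was the stated difference between them. No group received coconut oil without cDDGS, so the values below hold for cDDGS diets only. The other pigs were in group I (-cDDGS+rapeseed oil, 7 pigs) and group III (+cDDGS+beef tallow, 5 pigs), whose levels are set beside those of groups II and IV for some genes. The question of the comparison was which backfat genes differ in expression when a saturated plant fat replaces an unsaturated one.

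Coconut oil consists mainly of saturated fatty acids of medium chain length, above all lauric acid, while rapeseed oil is rich in oleic, linoleic and linolenic acids, which are unsaturated. Adipose tissue is the main site where pigs make fatty acids from glucose: ATP citrate lyase (ACLY) provides cytosolic acetyl-CoA, acetyl-CoA carboxylase (ACACA) and fatty acid synthase (FASN) build the chain, stearoyl-CoA desaturase (SCD) introduces a double bond, and PGD is among the suppliers of NADPH. Polyunsaturated fatty acids are known to lower the expression of these enzymes. Adipose tissue also holds macrophages, mast cells, vessels and fibroblasts, whose RNA is part of each sample, so that in these bulk samples fewer cells of a type and less RNA per cell cannot be told apart.

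Between 2437172 and 5123759 reads were counted on genes in the 11 pigs, so a gene at 1 CPM (a read count scaled to the library total, with TMM factors for composition) was represented by 2.31 to 6.24 reads. Of all reads in the deposited tables, 66.6% to 76.7% were in rows that name no gene, and 20.8% to 32.8% of the gene reads were on a single identifier (ENSSSCG00000018063). The adipocyte genes PLIN1, LIPE, CIDEC and PPARG had reads in all 11 pigs, and their summed level was 2091 ± 300.2 CPM (SD, n = 6) in group II and 2142 ± 201 CPM (SD, n = 5) in group IV. Genes known from liver and skeletal muscle varied widely between pigs of the same group. The albumin gene (ALB) ranged from 4.91 to 5541 CPM in group II and from 48.1 to 1682 CPM in group IV, and the skeletal muscle actin gene (ACTA1) ranged from 12.2 to 792 CPM and from 7.49 to 603 CPM. None of 16 measures of depth and composition, 12 of them summed cell type markers, passed an exact permutation test after Benjamini-Hochberg adjustment (smallest adjusted p = 0.485, two-sided). With only 462 regroupings of the 11 pigs, 1 measure alone could not pass this adjustment even if the groups were fully apart. The test therefore cannot show that composition was equal.

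No gene passed the test for a difference between the coconut oil and rapeseed oil groups. Of 10062 genes tested with edgeR's quasi-likelihood test, 0 (0%) were differentially expressed genes (DEGs), which needed a fold change over 1.3 as well as an adjusted p below 0.05. The smallest adjusted p was 0.251, reached by both CD209 and ENSSSCG00000020756, and the next gene stood at 0.967. Without adjustment, 502 genes (4.99%) had a p under 0.05, with 209 (2.08%) at a higher mean in group IV and 293 (2.91%) at a lower one. An even spread of p-values would put 5% of the genes there. DESeq2 called 2 of 10048 genes (0.0199%), again CD209 and ENSSSCG00000020756, and gave 515 genes an unadjusted p under 0.05. In simulated data with no gene changed, DESeq2 also made calls and edgeR made none. In simulated data with a known set of genes changed, edgeR missed more of them than DESeq2 did. The simulations therefore do not settle whether these 2 genes differ.

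**Figure D1:**
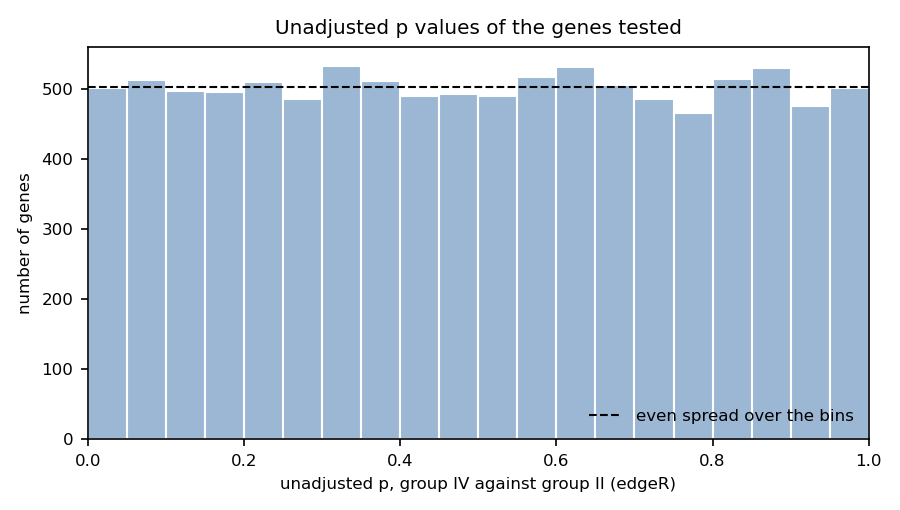
Number of genes (vertical axis) in 20 bins of the unadjusted edgeR p-value (horizontal axis) for group IV against group II, over the 10062 genes tested, with a dashed line at 503.1 genes per bin, the even spread. The lowest bin holds 502 genes and does not stand above the line.

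The precision behind this count differed between genes. The standard error of the log2 fold change had a median of 0.21. The 95% interval of the fold change lay within a 2-fold difference in either direction for 8523 genes (84.7%), and within the limit of 1.3-fold for 1300 genes (12.9%). Differences larger than 2-fold were therefore outside the interval of most genes, while differences near the 1.3-fold limit could not be told from none for most of them. The biological coefficient of variation between pigs of the same group was 0.28 in group II and 0.25 in group IV.

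CD209 (ENSSSCG00000013579), a C-type lectin receptor of macrophages and dendritic cells, showed the widest separation. Its level in group II had a lowest value of 18.2, a median of 40.5 and a highest value of 68.1 CPM. In group IV the 5 pigs had 14.6, 8.05, 13.1, 9.38 and 6.52 CPM. All coconut oil pigs lay below all rapeseed oil pigs. The log2 fold change was -1.97 ± 0.34 (SE), a 3.91-fold lower level in group IV (edgeR adjusted p = 0.251, exact permutation p = 0.00433, the smallest that 462 regroupings of 11 pigs can give in a two-sided test). DESeq2 gave it an adjusted p of 5.8e-05, and edgeR gave 0.0177 with sex and 0.000781 with RNA integrity as a covariate. After seeing the data, the fit was repeated without pigs 17 and 19 of group II, which gave -1.61 (edgeR adjusted p = 1.00), and with summed macrophage markers as a covariate, which gave -1.39 (edgeR adjusted p = 0.999). The log2 difference was -2.29 ± 0.30 (SE) among females and -1.50 ± 0.33 (SE) among males, and leaving out any single pig kept it between -2.11 and -1.75. The level was 9.83 ± 10.96 CPM (SD, n = 7) in group I and 14.3 ± 13.6 CPM (SD, n = 5) in group III, so that group II held the highest mean of the 4 groups. Genes of the CD209 family are similar in sequence, and reads that map to several places were not counted, so the level of CD209 itself is uncertain.

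ENSSSCG00000020756, an identifier that the tables used here pair with no symbol, was higher in the coconut oil group. Group II had a lowest value of 2.89, a median of 3.63 and a highest value of 5.20 CPM, and the group IV pigs had 8.89, 11.4, 12.2, 5.45 and 12.1 CPM. The groups did not overlap, although the lowest coconut oil pig lay close to the highest rapeseed oil pig. The log2 fold change was 1.44 ± 0.25 (SE), 2.72-fold (edgeR adjusted p = 0.251, exact permutation p = 0.00433, DESeq2 adjusted p = 0.00165). Its mean was 6.62 ± 3.14 CPM (SD, n = 7) in group I and 9.76 ± 6.30 CPM (SD, n = 5) in group III, and it rested on 11 to 76 reads per pig in the pigs compared.

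Besides CD209, the genes with the smallest p-values among those lower in group IV included regulators of transcription, retinoic acid and complement. Each had an edgeR adjusted p of 0.967. CREB5, a transcription factor of the CREB family, had a median of 10.1 CPM in group II (6.45 to 15.4) against 7.16, 3.64, 4.97, 3.03 and 3.14 CPM in group IV. Here 4 of 5 coconut oil pigs lay below every rapeseed oil pig (log2 fold change -1.26 ± 0.29 (SE), exact permutation p = 0.00866). CYP26B1, which breaks down retinoic acid, had a median of 6.97 CPM (3.47 to 10.1) against 2.96, 4.16, 2.40, 2.12 and 2.90 CPM (log2 fold change -1.27 ± 0.30 (SE), exact permutation p = 0.00866). CFP, which encodes properdin, the stabilizer of the alternative complement pathway, had a median of 6.68 CPM (4.58 to 10.4) against 3.95, 2.08, 4.01, 3.33 and 1.93 CPM (log2 fold change -1.16 ± 0.29 (SE), exact permutation p = 0.00433). The CFP levels of the groups did not overlap, as was also so for NIBAN2 (-0.71), TTC21A (-0.78), NFATC1 (-0.77), a transcription factor activated by calcineurin, and CMTM7 (-0.95). SRPX2, a secreted protein (-0.85), overlapped between the groups. CYP26B1, CFP, TTC21A and CMTM7 were at or below 10.4 CPM in every pig of both groups, so their levels rested on few reads. Each gene named here as lower in group IV also had a lower mean in group III than in group II. For CFP, CMTM7 and SRPX2 the group III mean was below that of group IV.

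Among the genes higher in group IV, LAD1, a protein of the basement membrane zone, had the smallest p-value of those with a symbol. Its median was 4.96 CPM in group II (3.83 to 8.23), and the coconut oil pigs had 13.3, 7.27, 11.5, 13.9 and 10.9 CPM, of which 4 lay above every rapeseed oil pig. The log2 fold change was 1.05 ± 0.24 (SE), 2.07-fold (edgeR adjusted p = 0.967, exact permutation p = 0.00866). GDF11, a ligand of the TGF-beta family, had a median of 18.04 CPM (8.67 to 28.6) against 29.6, 41.3, 25.5, 37.8 and 31.4 CPM (log2 fold change 0.91 ± 0.27 (SE)). GRK3, a kinase that desensitizes G protein-coupled receptors, had a median of 88.3 CPM (72.7 to 123) against 127, 128, 119, 177 and 146 CPM (log2 fold change 0.59 ± 0.15 (SE)). SULF1, which removes sulfate groups from heparan sulfate, had a median of 83.2 CPM (57.5 to 99.6) against 130.4, 112, 113, 135 and 97.1 CPM (log2 fold change 0.51 ± 0.14 (SE)). For GDF11, GRK3 and SULF1 alike, 4 of 5 coconut oil pigs were above all rapeseed oil pigs. The remaining genes among the 10 with the smallest p-values in this direction were MCFD2 (0.54), a cargo receptor of the early secretory pathway, USP53 (0.54), the ubiquitin ligase RNF14 (0.39), the Golgi protein GOLM1 (0.76), TMA7 (0.58) and UQCC2 (0.77), an assembly factor of respiratory complex III. All had an edgeR adjusted p of 0.967, and all were picked for small p-values in these same pigs. LAD1, GDF11 and GOLM1 are on the study's own list for group I against the same group IV pigs, and USP53 is on its list for group I against the same group II pigs, so their levels are not independent of that choice. Each gene named here as higher in group IV also had a higher mean in group III than in group II. For USP53 and MCFD2 the group III means, 221 and 106 CPM, were above the 158 and 96.9 CPM of group IV.

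**Figure D2:**
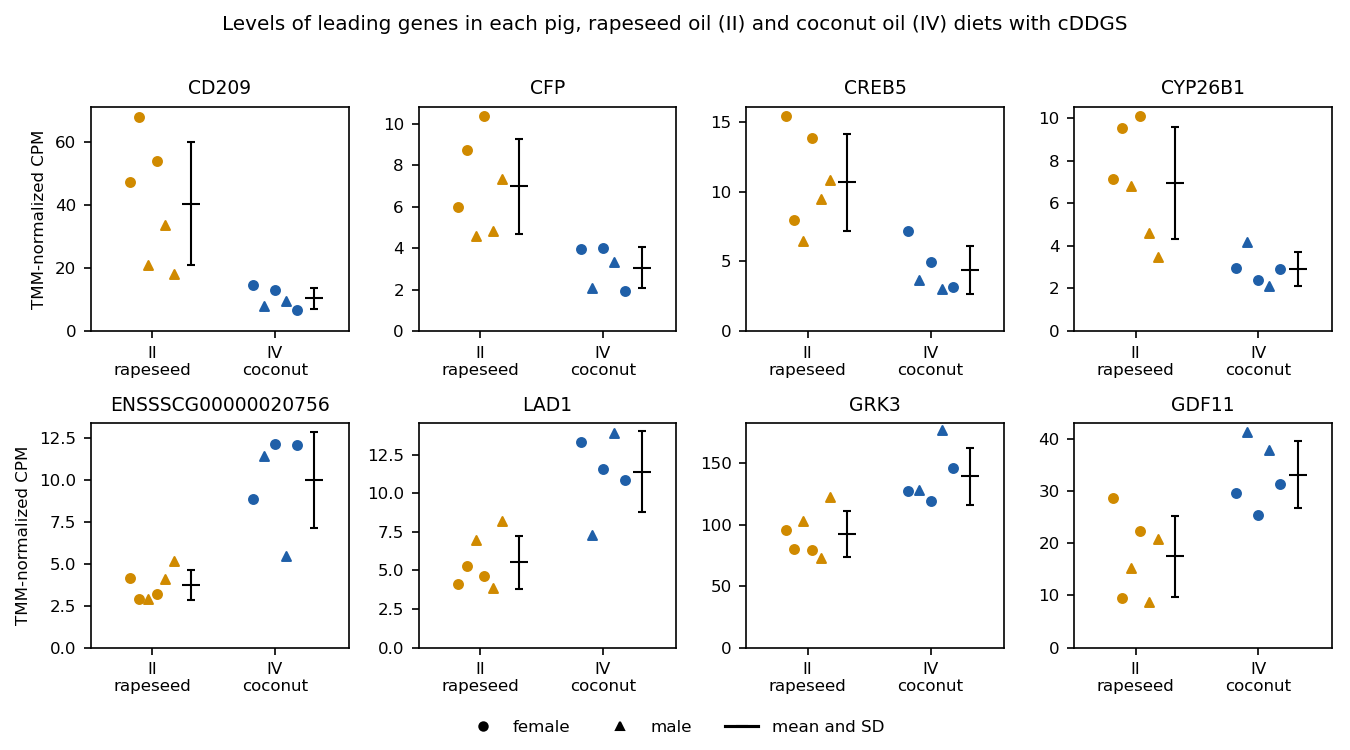
TMM-normalized CPM (vertical axes, each from 0) of 8 genes in every pig of group II and group IV, with circles for females, triangles for males, and the mean and SD beside the points. The CD209 and CFP levels of group IV lie below those of group II without overlap, ENSSSCG00000020756 lies above, and the other genes overlap by 1 pig or more.

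In all, 13 genes (0.129% of those tested) had CPM values in group IV entirely above group II and 21 (0.209%) entirely below. Of the 462 regroupings of the 11 pigs, 1 sets the groups apart in each direction, and neither share is above 1 in 462. Their log2 fold changes ranged in size from 0.18 to 1.97, and 27 of these 34 genes had a symbol. Those below included SP1 (-0.32), a transcription factor of many promoters, BACH1 (-0.31), a repressor of heme oxygenase, MYLIP (-0.56), the ubiquitin ligase that degrades the LDL receptor, and CERS5 (-0.71), a ceramide synthase. Those above included SETD7 (0.34), a lysine methyltransferase, and DDX6 (0.18), an RNA helicase. These 6 were chosen for naming after their values were seen, and the edgeR adjusted p was 0.967 or 0.979 for each.

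The enzymes of fatty acid synthesis had higher means in the coconut oil group for 12 of 14 identifiers tested. Of the 18 genes listed 14 were paired with an identifier, FASN with a pair of them, and 1 identifier was below the count filter. None passed the test, and 47.9% of all genes tested had a positive log2 fold change. The median log2 fold change of the list was 0.31, beside -0.01 over all genes, and 4 members had an unadjusted p under 0.05. All of these were higher in group IV, as were 2.08% of all genes tested at that limit. ACLY had 173.7, 229.6 and 347.5 CPM as lowest, median and highest value in group II, and 162, 1146, 486, 334 and 331 CPM in group IV. The groups overlapped, and 1 coconut oil pig, a male, stood far above the others. The log2 fold change was 1.02 ± 0.37 (SE) (edgeR adjusted p = 0.967, exact permutation p = 0.121), and without that pig it was 0.44. SCD had 2484, 8887 and 11875 CPM in group II and 12228, 23876, 13563, 8323 and 11282 CPM in group IV. The lowest rapeseed oil pig and the highest coconut oil pig set much of its difference (log2 fold change 0.78 ± 0.35 (SE), edgeR adjusted p = 0.967), which was 0.60 without the former and 0.49 without the latter. The number of members with an unadjusted p under 0.05 ran from 0 to 4 when single pigs were left out.

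PGD, an NADPH-producing enzyme of the pentose phosphate pathway, showed a smaller difference. It had 71.0, 103 and 104 CPM as lowest, median and highest value in group II and 114, 182, 112, 102 and 129 CPM in group IV (log2 fold change 0.39 ± 0.15 (SE), exact permutation p = 0.0216). The groups overlapped, with 4 of 5 coconut oil pigs above all rapeseed oil pigs, and the edgeR adjusted p was 0.967. The chain-building enzymes lay closer together. FASN reads were split between a pair of identifiers, with means of 3550 and 4530 CPM at ENSSSCG00000029944 (log2 fold change 0.34 ± 0.25 (SE)) and of 1420 and 1743 CPM at ENSSSCG00000023044 (0.29 ± 0.26 (SE)) in groups II and IV. Without pig 52 of group IV the log2 fold change of PGD was 0.23, and without pig 19 of group II those of the FASN identifiers were 0.19 and 0.12. ACACA had a log2 fold change of 0.32 ± 0.23 (SE), with a 95% interval from -0.18 to 0.82. The members at or below 0 were SLC25A1 (-0.05), the mitochondrial citrate carrier, and FADS1 (-0.0022), a desaturase of polyunsaturated chains.

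Set beside the other groups, group II had the lowest mean of ACLY, SCD, PGD, ACACA and FASN, but its median was above that of group III for each of them. ACLY averaged 715 ± 413 CPM (SD, n = 7) in group I, 240 ± 63.7 CPM (SD, n = 6) in group II, 412 ± 553 CPM (SD, n = 5) in group III and 492 ± 383 CPM (SD, n = 5) in group IV. SCD averaged 17106 ± 3420 CPM in group I, 8031 ± 3242 CPM in group II, 10350 ± 9586 CPM in group III and 13854 ± 5924 CPM in group IV (SD, n = 7, 6, 5 and 5). In group III, 1 pig stood far above the others for both genes, at 1398 CPM of ACLY and 26558 CPM of SCD, and the group III medians were 195 and 8321 CPM, below the 229.6 and 8887 CPM of group II. ACLY, SCD, ACACA, FASN, AACS and FITM2 are on the study's own list of genes that differ between group I and the same group II pigs. Their group II levels relative to group I were thus part of how those genes came to notice, and are not independent of it.

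**Figure D3:**
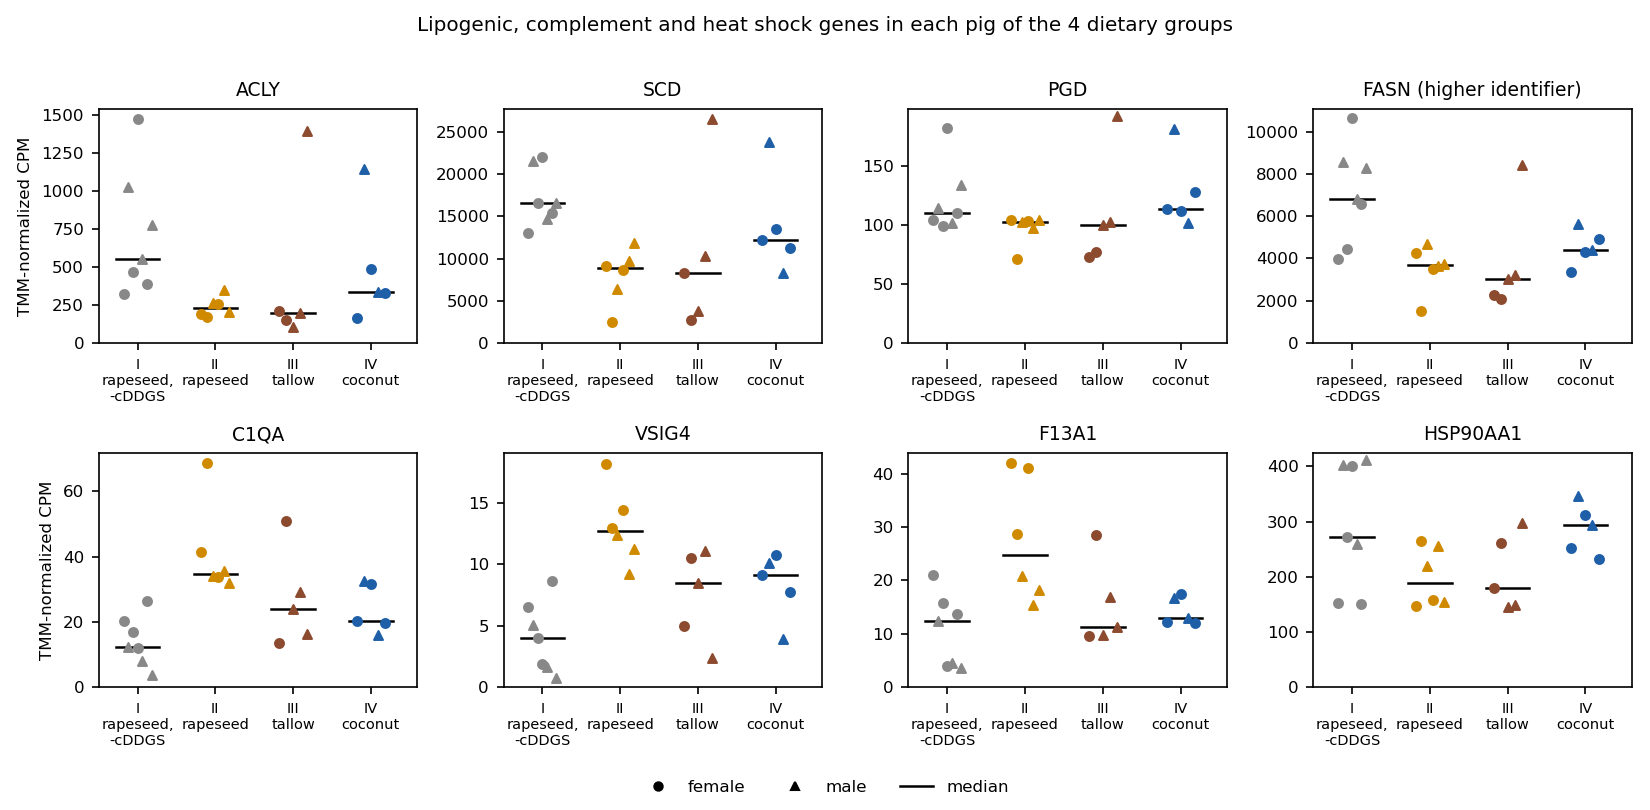
TMM-normalized CPM (vertical axes, each from 0) of 4 lipogenic genes (upper row), 3 complement and coagulation genes and HSP90AA1 (lower row) in every pig of the 4 dietary groups, with circles for females, triangles for males and a line at the median. For ACLY, 1 pig of group IV and 1 of group III stand far above the rest of their groups, and for VSIG4 the group II median of 12.7 CPM is the highest of the 4.

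In the remaining lists of lipid metabolism no member passed the test. The medians of sterol synthesis, of triglyceride synthesis and of lipolysis lay so close to 0 that leaving out single pigs turned their sign. Sterol synthesis and uptake had a median log2 fold change of 0.07 over 14 genes, with AACS, acetoacetyl-CoA synthetase, at 0.32 ± 0.13 (SE). Triglyceride synthesis and lipid droplets had a median of -0.03 over 11 genes, and PLIN1, the main coat protein of the droplet, had 1146 ± 251 CPM (SD, n = 6) in group II and 1192 ± 83.2 CPM (SD, n = 5) in group IV. Its log2 fold change was 0.05, with a 95% interval from -0.30 to 0.40. PLIN4 (-0.41 ± 0.34 (SE)) and FITM2 (0.29 ± 0.18 (SE)), which act on the same droplets, had intervals that included 0. Lipolysis had a median of -0.03 over 6 genes, where MGLL, the monoglyceride lipase, was at 0.33 ± 0.13 (SE) and the triglyceride lipase PNPLA2 at -0.04 ± 0.17 (SE).

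Fatty acid uptake and activation had a median of 0.13 over 7 genes, among which the acyl-CoA synthetase ACSL3 (0.44 ± 0.16 (SE)) had the smallest p. Of the 15 genes listed, 9 were paired with an identifier, and those below the count filter were not tested. Fatty acid oxidation and PPAR targets had a median of 0.09 over 18 genes. Of these, PDK4, the kinase that shuts pyruvate out of the citric acid cycle, had 1163, 1838 and 4188 CPM as lowest, median and highest value in group II and 3633, 3998, 2148, 6460 and 3193 CPM in group IV. The groups overlapped, with 1 coconut oil pig above every rapeseed oil pig and all of them above the group II median (log2 fold change 0.79 ± 0.32 (SE), edgeR adjusted p = 0.967, exact permutation p = 0.0563). CPT1A, which admits long-chain fatty acids to the mitochondrion, was at 0.12 ± 0.20 (SE), ACADM, the medium-chain acyl-CoA dehydrogenase, at 0.08 ± 0.17 (SE), and UCP2, an uncoupling protein of the inner membrane, at -0.32 ± 0.31 (SE). Adipokines and adipocyte regulators had a median of -0.18 over 8 genes, and none of them had an unadjusted p under 0.05. PPARG, the main adipocyte transcription factor, had 212 ± 71.0 CPM (SD, n = 6) in group II and 213 ± 114 CPM (SD, n = 5) in group IV.

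Genes of complement and coagulation had lower means in the coconut oil group for 9 of 10 identifiers tested (11 of 15 listed genes were paired with an identifier), where 52.1% of all genes had a negative log2 fold change. The list's median log2 fold change was -0.54, the lowest of the 17 lists, and no member passed the test. Leaving out single pigs gave a median from -0.84 (without pig 53 of group IV) to -0.42 (without pig 54) and 2 to 5 lower members with an unadjusted p under 0.05. Among all genes tested, 2.91% were lower at that limit with every pig kept. C1QA, a chain of the first complement component, had 32.1, 34.8 and 68.6 CPM as lowest, median and highest value in group II and 20.2, 32.5, 31.6, 16.0 and 19.8 CPM in group IV. Of the coconut oil pigs, 4 were below all rapeseed oil pigs and 1 was just inside their range (log2 fold change -0.77 ± 0.24 (SE), edgeR adjusted p = 0.967, exact permutation p = 0.00866). F13A1, the coagulation factor XIII subunit that resident macrophages express, had 15.3, 24.7 and 41.9 CPM in group II and 12.1, 16.6, 17.5, 13.01 and 12.1 CPM in group IV (log2 fold change -0.96 ± 0.26 (SE), exact permutation p = 0.0173). VSIG4, a complement receptor of resident macrophages, had 9.19, 12.7 and 18.2 CPM in group II and 9.14, 10.1, 10.7, 3.93 and 7.73 CPM in group IV (log2 fold change -0.65 ± 0.24 (SE), exact permutation p = 0.0173). The F13A1 and VSIG4 ranges of the groups overlapped. The exception in direction was F3, tissue factor, which starts coagulation, at 0.80 ± 0.37 (SE). Its group IV mean of 156 CPM rested on 1 pig at 355 CPM, and without that pig the log2 fold change was 0.25.

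Markers of macrophages had lower means in the same group. All 5 macrophage markers tested were lower in group IV, from -0.77 (C1QA) to -0.32 (CD68), and 3 of them, C1QA, VSIG4 and the mannose receptor MRC1 (-0.60), had an unadjusted p under 0.05. Of all genes tested, 52.1% had a negative log2 fold change and 2.91% were lower with an unadjusted p under 0.05. C1QA, C1QC and VSIG4 stand on both lists. The summed CPM of the 7 macrophage markers ran from 182 to 359 in group II and from 88.7 to 226 in group IV (exact permutation p = 0.0606, adjusted p = 0.485). Of the defining markers, CSF1R was at 0 in 1 group IV pig and had a median of 3.69 CPM in group II and 0.48 CPM in group IV, below the count filter. MARCO lay at 1.15 CPM or less in every pig. In the same direction, summed mast cell markers had a median of 152 CPM (146 to 214) in group II and 114 CPM (88.7 to 167) in group IV (exact permutation p = 0.0303, adjusted p = 0.485). Of these markers HDC was at 0 in all 11 pigs and FCER1A at 1.06 CPM or less, so the sum was nearly all MS4A2 and KIT. With the summed macrophage markers as a covariate, a fit chosen after seeing the data in which C1QA, C1QC and VSIG4 are part of their own covariate, the median of the complement list was 0.10 and none of its members had an unadjusted p under 0.05. Without pigs 17 and 19 of group II, left out together after seeing the data, it was -0.36, and it was -0.64 among females and -0.27 among males. The part of the mast cell markers in the difference was not tested. Over the 4 groups, C1QA averaged 14.2 ± 7.64 CPM (SD, n = 7) in group I, 40.9 ± 13.9 CPM (SD, n = 6) in group II, 26.8 ± 14.9 CPM (SD, n = 5) in group III and 24.0 ± 7.49 CPM (SD, n = 5) in group IV. C1QA, VSIG4, F13A1, F3, MS4A2 and C5AR1 are also on the study's list for group I against the same group II pigs.

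**Figure D4:**
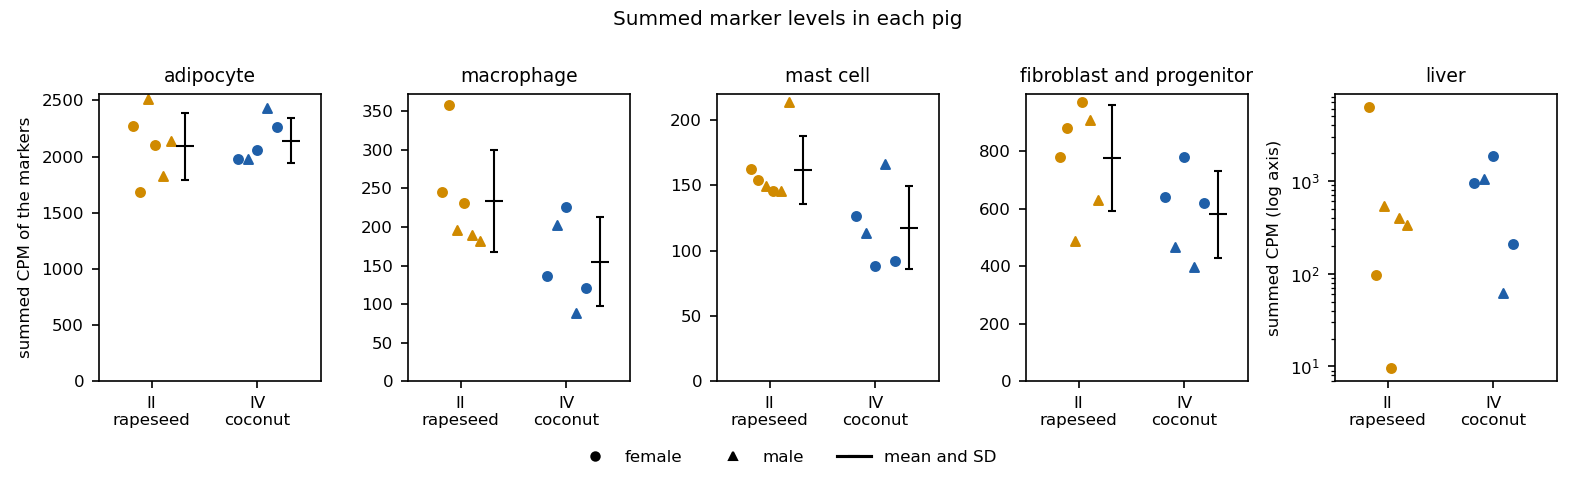
Summed CPM of the markers of 5 cell types (vertical axes, the liver panel on a log axis) in every pig of group II and group IV, with circles for females and triangles for males, and the mean and SD for the first 4. The adipocyte sums of the groups lie over each other, the macrophage, mast cell and fibroblast sums lie lower on average in group IV with overlap, and the liver sums spread from 9.54 to 6223 CPM within group II.

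Of inflammatory genes and sensors of saturated fat, 3 of 11 tested were higher and 8 lower, where 52.1% of all genes were lower. The list's median was -0.20, which was -0.45 without pig 52 and -0.06 without pig 53 of group IV, and -0.12 without pig 19 of group II. TLR2, a receptor of bacterial lipoproteins, had few reads, with 3.03 to 5.36 CPM in group II and 0.61 to 3.64 CPM in group IV (log2 fold change -0.83 ± 0.32 (SE)). IL1RAP, the accessory chain of the interleukin 1 receptor, went the other way, with 26.3, 42.7 and 61.1 CPM as lowest, median and highest value in group II and 56.8, 66.5, 64.1, 96.2 and 62.8 CPM in group IV (log2 fold change 0.66 ± 0.22 (SE), exact permutation p = 0.0216). TLR4, the lipopolysaccharide receptor, was at -0.48 ± 0.24 (SE) and its co-receptor CD14 at -0.44 ± 0.34 (SE). The edgeR adjusted p was 0.967 or more for every member, and IL6 and CXCL8 had too few reads to be tested.

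Heat shock genes had higher means in the coconut oil group for 10 of 10 tested (12 genes were listed), with a median log2 fold change of 0.46, the highest of the lists. A positive log2 fold change was found for 47.9% of all genes tested. No member passed the test. HSP90AA1, the stress-inducible cytosolic HSP90, had 147, 188 and 265 CPM as lowest, median and highest value in group II and 252, 346, 312, 294 and 233 CPM in group IV, where 3 of 5 pigs were above all rapeseed oil pigs (log2 fold change 0.51 ± 0.18 (SE), edgeR adjusted p = 0.967, exact permutation p = 0.0260). HSPH1, a nucleotide exchange factor of HSP70, was at 0.67 ± 0.28 (SE), and its co-chaperone DNAJA1 was at 0.49 ± 0.21 (SE). Both overlapped between the groups, and HSPH1 reached 138 CPM in pig 53 of group IV, without which its log2 fold change was 0.35. HSP90AB1, the constitutive form of HSP90, was at 0.14 ± 0.15 (SE). Leaving out single pigs gave a list median from 0.29 to 0.53. HSPH1 is on the study's list for group I against the same group II pigs, as is IL1RAP. For chaperones of the endoplasmic reticulum, the unfolded protein response list had a median of 0.06 over 11 genes, with HSPA5 at 0.06 ± 0.17 (SE) and HSP90B1 at 0.09 ± 0.18 (SE). Whether the 17 lists differ from each other was not tested.

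Genes of the respiratory chain lay slightly above the median of all genes. All 13 protein-coding genes of the mitochondrial genome had a positive log2 fold change, from 0.02 (ND4L) to 0.38 (ATP8), but none had an unadjusted p under 0.05. These transcripts come from shared precursors, so their values are not 13 separate observations. With the summed macrophage markers as a covariate the list's median was -0.07 rather than 0.16, and leaving out single pigs gave 0.05 (without pig 21 of group II) to 0.32 (without pig 53 of group IV). COX1 had 16289 ± 4326 CPM (SD, n = 6) in group II and 17930 ± 2732 CPM (SD, n = 5) in group IV. Of the nuclear genes, 21 of 27 were higher, beside 47.9% of all genes tested, with a median of 0.16. Their smallest p was that of UQCRFS1, the Rieske iron-sulfur subunit of complex III (0.32 ± 0.15 (SE)). Oxidant defence genes had a median of 0.16 over 9 genes, with catalase (CAT) at -0.09 ± 0.19 (SE) and SOD1, the cytosolic superoxide dismutase, at 0.40 ± 0.23 (SE).

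Collagens and other matrix genes had lower means in the coconut oil group for 14 of 17 identifiers, beside 52.1% of all genes tested, with a median of -0.24. FN1, fibronectin, had 760, 1234 and 3115 CPM as lowest, median and highest value in group II and 943, 487, 1203, 360 and 1085 CPM in group IV. The groups overlapped, with 2 coconut oil pigs below every rapeseed oil pig and none above the group II median. The log2 fold change was -0.87 ± 0.39 (SE) (edgeR adjusted p = 0.967, exact permutation p = 0.121). In group II, 1 pig was far above the others, and without it the log2 fold change was -0.51. The fibrillar collagen genes COL1A2 (-0.58 ± 0.36 (SE)) and COL3A1 (-0.40 ± 0.23 (SE)) had intervals that included 0. Without pig 19 of group II the median of the list was -0.08, and without pig 21 of the same group, the one with most FN1, it was -0.09. The summed fibroblast markers ran from 487 to 969 CPM in group II and from 399 to 780 CPM in group IV (exact permutation p = 0.0909, adjusted p = 0.485), and their part in the levels of the matrix genes was not tested.

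The last pair of lists held no member with an unadjusted p under 0.05. Interferon and MHC class I genes had a median of 0.21 over 11 genes, which was -0.06 without pig 49 of group IV, with MX1 and MX2, antiviral GTPases, at 0.56 ± 0.37 (SE) and 0.50 ± 0.30 (SE). SLA-1 and TMP-SLA-3, which present peptides, were at 0.43 ± 0.31 (SE) and 0.27 ± 0.19 (SE), and reads of such similar genes may be misassigned or lost. Circadian clock genes had a median of -0.10 over 9 genes, which was 0.05 without pig 21 of group II, with PER1, a repressor of the clock, at -0.0046 ± 0.20 (SE). Over the 17 lists, 206 identifiers were tested, of which 18 (13 higher and 5 lower) had an unadjusted p under 0.05, 8.74% beside 4.99% of all genes. Those 18 include ACLY, SCD, AACS, C1QA, VSIG4, F13A1, F3, IL1RAP and HSPH1, which are on the study's list for group I against the same group II pigs. The share of 8.74% is therefore not independent of that choice and is no test of the lists.

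**Figure D5:**
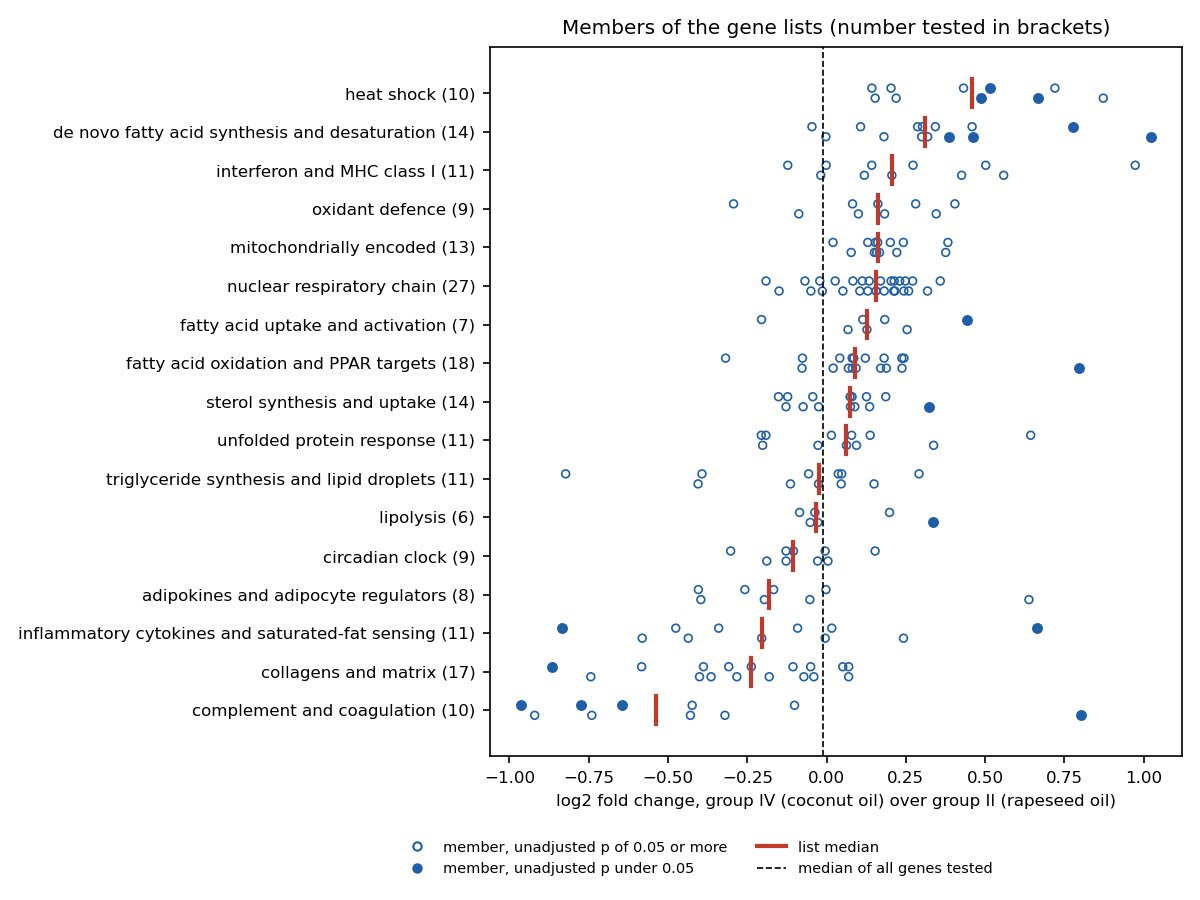
Log2 fold change of group IV over group II (horizontal axis) for each tested member of the 17 lists (rows, number of members in brackets), filled where the unadjusted p was under 0.05, with a red bar at the list median and a dashed line at the median of all genes. List medians run from -0.54 (complement and coagulation) to 0.46 (heat shock), and no point passed the test after adjustment.

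Whether the difference between the fats depended on sex was tested as an interaction. With edgeR, 0 genes (0%) passed an adjusted p of 0.05 (smallest adjusted p = 1.00), and 302 genes (3.00%) had an unadjusted p under 0.05. DESeq2 called 1 gene, ALDH1A2, which makes retinoic acid. Its level was 1.15, 2.91 and 5.20 CPM in the group II females and 19.3, 17.6 and 26.8 CPM in the group IV females, against 10.7, 11.7 and 15.2 CPM in the group II males and 14.5 and 5.45 CPM in the group IV males. The female groups did not overlap and the male groups did. The interaction, the fat difference in males minus that in females, was -3.11 on the log2 scale by DESeq2 (adjusted p = 0.0198) and -3.10 by edgeR (adjusted p = 1.00). With 2 males in group IV, the interaction rested on few pigs.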

How the data were processed

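Total RNA of backfat was depleted of ribosomal RNA and sequenced as single-end reads from stranded libraries. Per the labels and the study's methods, the authors trimmed the reads with FLEXBAR, mapped them with TopHat and deposited raw counts per Ensembl gene from HTSeq, 25322 gene rows and 5 summary rows per pig. How repeat sequencing runs were merged is not given in the sources used here. The study names an Ensembl pig assembly and annotation as its reference, but whether the deposited identifiers come from that assembly was not settled here, so no coordinates are printed. The study describes the RNA as partly degraded, and reads of multiple matches were not counted, which lowers genes with near-identical copies. Symbols came from a reference table (11804 identifiers) or only from the study's tables (81).

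The summary rows, 66.6% to 76.7% of all reads, were left out of library sizes. The 11 pigs entered edgeR 4.0.16 in R 4.3.3 (TMM, filterByExpr, glmQLFit, glmQLFTest, Benjamini-Hochberg over all genes tested). CPM were TMM-normalized over all 23 pigs, and single genes and summed markers were compared by two-sided exact permutation, the genes on log2(CPM + 0.5). Adjusted p-values of edgeR and DESeq2 are corrected over all genes tested, and exact permutation p-values of single genes are not. For genes named because of a small edgeR p, the exact permutation used the same pigs and is no separate evidence. Of pigs in the same group, all 25 pairs differed by more than sampling noise (chi-square over degrees of freedom at least 7.02), so each was 1 sample. The edgeR and DESeq2 comparisons of group IV with group II were tried on simulated data. Figures were drawn with matplotlib 3.10.9.

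Named were the genes called by either tool, the 10 with the smallest p in each direction, per list up to 4 members with an unadjusted p under 0.05 or otherwise the 2 with the highest mean CPM, the genes the study measured by qPCR with SCD and UCP2, and the gene with most reads. Further list members and marker genes are given for context, chosen after their values were seen. The comparison, the genes and the lists were chosen with earlier results of these data known. Alternatives were DESeq2 1.42.0, limma-voom with quality weights (limma 3.58.1), other normalizations, filters, pseudocounts and covariates (sex, RNA integrity as given by the study, reads outside genes), all 23 pigs in 1 fit, each sex alone, and each pig left out. Leaving out pigs 17 and 19 together, and the summed macrophage markers as covariate, were added after seeing the data. A few list members enter the counts and medians of their lists but are not reported here.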

Additional observations from a re-analysis of the deposited data

Results flagged for a closer look

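Among 154 sets of 5 or 6 values examined by Dixon's test, 1 pig stood apart from the rest of its group in 17. For normally distributed values, chance alone sets 1 pig apart in about 1 of 20. The summed markers were examined as CPM without logarithms, and some sets share genes, so the 17 cannot be set against that rate. In group II, pig 19 was low for PGD (71.0 CPM) and for both FASN identifiers (536 and 1516 CPM) and high for C1QA (68.6 CPM) and for the summed macrophage markers (359 CPM). Pig 17 of the same group was high for the summed liver markers (6223 CPM, mostly ALB) and the summed epidermis markers (18.2 CPM). Pig 21 was high for PLIN4 (1386 CPM), pig 22 for USP53 (153.6 CPM), and pig 24 for the summed mast cell markers (213.6 CPM) and the summed skeletal muscle markers (976 CPM).

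In group IV, pig 54 was high for F3 (355 CPM) and low for PLIN4 (222 CPM). Pig 53 was low for COX1 (13279 CPM) and high for the summed epidermis markers (13.1 CPM). Pig 52 was high for the summed skeletal muscle markers (823 CPM), and pig 55 was low for MS4A2 (20.5 CPM), a subunit of the IgE receptor of mast cells.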

How the results depend on the processing

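The count of 0 differentially expressed genes became 2 with DESeq2 and 1 (CD209) with sex or with RNA integrity as a covariate, and it was 0 under the other settings, including each pig left out. For the sex interaction DESeq2 gave 1 gene in place of 0. The 502 genes with an unadjusted p under 0.05 became 779 without the low-count filter, 289 without pigs 17 and 19, and 322 with the macrophage covariate, the last pair being settings added after seeing the data; leaving out single pigs gave 358 to 709. The adjusted p of CD209 ran from 5.8e-05 to 1.00 over its settings. Of 1513 fold changes recomputed, 43 had the opposite sign and 49 of 61 identifiers kept their direction throughout. The causes were not tested. PPARG became 0.0013 with DESeq2, 0.0012 with RLE normalization, 0.0048 with TMM without the gene of most reads, 0.023 without the filter, 0.061 with sex as a covariate, 0.0064 with all 23 pigs and 0.15 in females, and -0.32 to 0.16 with single pigs left out. PER1 became 5.28e-05 with DESeq2, 0.097 with limma-voom, 0.00027 with TMM without the gene of most reads, 0.021 without the filter, 0.0035 with all 23 pigs and 0.12 in males, and -0.091 to 0.12 with single pigs left out. In females CAT was 0.093 and ALAS1 -0.12, and in males UCP2 was 0.15. With the macrophage covariate PLIN1 was -0.11, COX1 -0.089, HSP90B1 -0.12, HSPA5 -0.072, SLA-1 -0.025, UCP2 0.088 and ENSSSCG00000018063 -0.39. Without pigs 17 and 19, PLIN1 was -0.029. Leaving out single pigs gave -0.046 to 0.13 for PLIN1, -0.53 to 0.027 for PLIN4, -0.019 to 0.18 for HSPA5, -0.19 to 0.00022 for CAT and -0.064 to 0.19 for ENSSSCG00000018063. No paired analysis was possible because groups II and IV hold different pigs and the labels pair none of them. Depth limits genes near 1 CPM, which rest on 2.31 to 6.24 reads per pig.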
